A study of Mus musculus with 12 samples.

Results

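The CXC chemokines examined here were *Cxcl1*, *Cxcl2*, *Cxcl3*, *Cxcl5*, *Cxcl9*, *Cxcl10*, *Cxcl14* and *Cxcl16*. They were taken by symbol from the deposited expression table as the neutrophil-attracting ligands (*Cxcl1*, *Cxcl2*, *Cxcl3* and *Cxcl5*), the interferon-inducible ligands (*Cxcl9* and *Cxcl10*) and 2 further ligands (*Cxcl14* and *Cxcl16*). All 8 were among the 12850 genes listed and among the 11885 genes tested. RNA had been sequenced from thioglycollate-elicited PECs (peritoneal exudate cells, the cells washed out of the inflamed peritoneum) of WT mice and of mice homozygous for the S513A allele of *Zc3h12a* (S513A). *Zc3h12a* encodes Regnase-1, an RNase that degrades inflammatory mRNAs, and the allele replaces a serine of the protein with alanine. The allele was made by CRISPR/Cas9 in C57BL/6J zygotes, and the labels give the strain of both genotypes as C57BL/6. All mice had received 2 ml of 4% thioglycollate medium 3.5 days before the cells were collected. The 6 groups were WT at 0 hr, WT at 4 hr, WT at 8 hr, S513A at 0 hr, S513A at 4 hr and S513A at 8 hr of LPS at 100 ng/ml, with 2 libraries each. The allele is carried in the germline, so that every cell type in the exudate holds it.

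CXC chemokines are secreted proteins that direct the movement of leukocytes through G-protein-coupled receptors. *Cxcl1*, *Cxcl2*, *Cxcl3* and *Cxcl5* attract neutrophils through *Cxcr2*, and their genes are induced by NF-kappaB. *Cxcl9* and *Cxcl10* attract activated T cells and NK cells through *Cxcr3*, and their genes respond to interferons. *Cxcl16* is made as a membrane-bound protein that is released by the proteases *Adam10* and *Adam17* and binds *Cxcr6*, and *Cxcl14* is a chemokine produced mostly in epithelial and stromal tissue. LPS acts on macrophages through *Tlr4*.

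Each library held 9525979 to 12439960 reads on listed genes. All 8 macrophage markers were listed, and their summed level was 16754 to 27847 CPM (reads scaled to library size) in every library. Of 12 neutrophil markers, 8 were not listed, among them *Ly6g*, *S100a9* and *Cxcr2*. The other 4 (*S100a8*, *Csf3r*, *Camp* and *Mmp8*) summed to 491 to 828 CPM. Most of that sum was *Mmp8*, with group means of 8.41 to 9.41 log2 CPM. The filter behind the list is not given, so that a gene not listed is not shown to be absent. Markers of mesothelial cells and fibroblasts (8 of 9 listed) summed to 28.3 to 59.4 CPM in the WT libraries and 15.02 to 42.8 CPM in the S513A libraries. Markers of B cells summed to 9.90 to 25.7 CPM, of eosinophils (2 of 5 listed) to 3.54 to 18.4 CPM, of dendritic cells (4 of 5 listed) to 2.19 to 10.3 CPM, of mast cells (4 of 5 listed) to 1.58 to 3.64 CPM, of platelets (1 of 4 listed) to 0.263 to 4.27 CPM and of T cells (1 of 6 listed) to 0.0954 to 1.09 CPM. Replicates were least alike in WT at 4 hr, where the SD over genes of their log2 difference was 0.40, against 0.16 to 0.34 in the other groups. The labels do not say whether the libraries of a group came from separate mice, so that the p values measure the spread between these libraries, which may be technical. In bulk RNA, a change in the number of expressing cells and a change in RNA per cell cannot be told apart.

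The genes of the neutrophil-attracting ligands lie together on mouse chromosome 5 (GRCm38), with *Cxcl5*, *Ppbp*, *Pf4*, *Cxcl3*, *Cxcl15*, *Cxcl1* and *Cxcl2* within 147 kb. *Cxcl9* and *Cxcl10* lie apart from them on the same chromosome, within 27.6 kb. *Cxcl14* is on chromosome 13 and *Cxcl16* on chromosome 11. Promoter sequences in the RefSeq table (GRCm38.p6) were matched for 6 of the 8 genes, all but *Cxcl5* and *Cxcl16*. The 250 bases before each start site were searched on both strands for a kappaB-like motif, GGNNNTTCC, and for an interferon-response-like motif, GAAANNGAA. The kappaB-like motif was found in 5 of the 6 promoters (*Cxcl1*, *Cxcl2*, *Cxcl3*, *Cxcl9* and *Cxcl10*), against 15.7% of all 32851 promoters. The interferon-response-like motif was found in 3 of the 6 (*Cxcl9*, *Cxcl10* and *Cxcl14*), against 7.13% of all promoters. Both motifs were present in *Cxcl9* and *Cxcl10*, as in 1% of all promoters. A match describes the letters and is not evidence of a bound site. The promoter stretches of the 5 genes with a kappaB-like match are printed to show how these matches are arranged, from 10 bases before the first match to the base before the start site, with matches to either motif in capitals. They are chr5:90891146-90891244 (+), chr5:90903793-90903898 (+), chr5:90786019-90786100 (+), chr5:92328080-92328264 (-) and chr5:92348890-92349112 (-), in the order of the lines.
Cxcl1: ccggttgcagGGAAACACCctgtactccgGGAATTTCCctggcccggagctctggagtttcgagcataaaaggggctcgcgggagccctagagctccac
Cxcl2: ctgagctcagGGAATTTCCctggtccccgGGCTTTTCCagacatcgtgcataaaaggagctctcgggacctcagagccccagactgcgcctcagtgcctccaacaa
Cxcl3: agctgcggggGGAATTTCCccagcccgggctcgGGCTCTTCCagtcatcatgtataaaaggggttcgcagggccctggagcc
Cxcl9: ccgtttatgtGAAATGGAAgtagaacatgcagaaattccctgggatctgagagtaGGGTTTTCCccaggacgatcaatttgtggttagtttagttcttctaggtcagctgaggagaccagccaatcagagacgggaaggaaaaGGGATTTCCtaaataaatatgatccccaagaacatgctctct
Cxcl10: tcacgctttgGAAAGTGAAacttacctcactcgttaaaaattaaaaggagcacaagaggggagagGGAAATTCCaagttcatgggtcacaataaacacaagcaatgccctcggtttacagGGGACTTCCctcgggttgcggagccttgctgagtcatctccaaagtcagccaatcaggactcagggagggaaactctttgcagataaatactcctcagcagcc
*Cxcl1*, *Cxcl2* and *Cxcl3* each carried the same 9 letters, GGAATTTCC, within 96 bases of the start site, and a second kappaB-like match close to it. In *Cxcl9* and *Cxcl10* an interferon-response-like match lay farther from the start site than both kappaB-like matches.

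LPS raised 7 of the 8 chemokine mRNAs at 4 hr in both genotypes, by limma's moderated test with Benjamini-Hochberg adjustment over all tested genes, and *Cxcl14* was the exception. In WT, 7 members were higher and 0 lower, where 22.6% of all tested genes were higher and 18.7% lower. The smallest member change in WT was that of *Cxcl14*, which did not pass (unadjusted p = 0.0446). In S513A, 7 were higher and 1 lower, where 23.1% of tested genes were higher and 20.2% lower. At 8 hr against 0 hr, 7 were higher and 1 (*Cxcl14*) lower in both genotypes. The background at 8 hr was 19.4% higher and 14.9% lower in WT, and 20.9% higher and 19% lower in S513A.

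**Figure D1:**
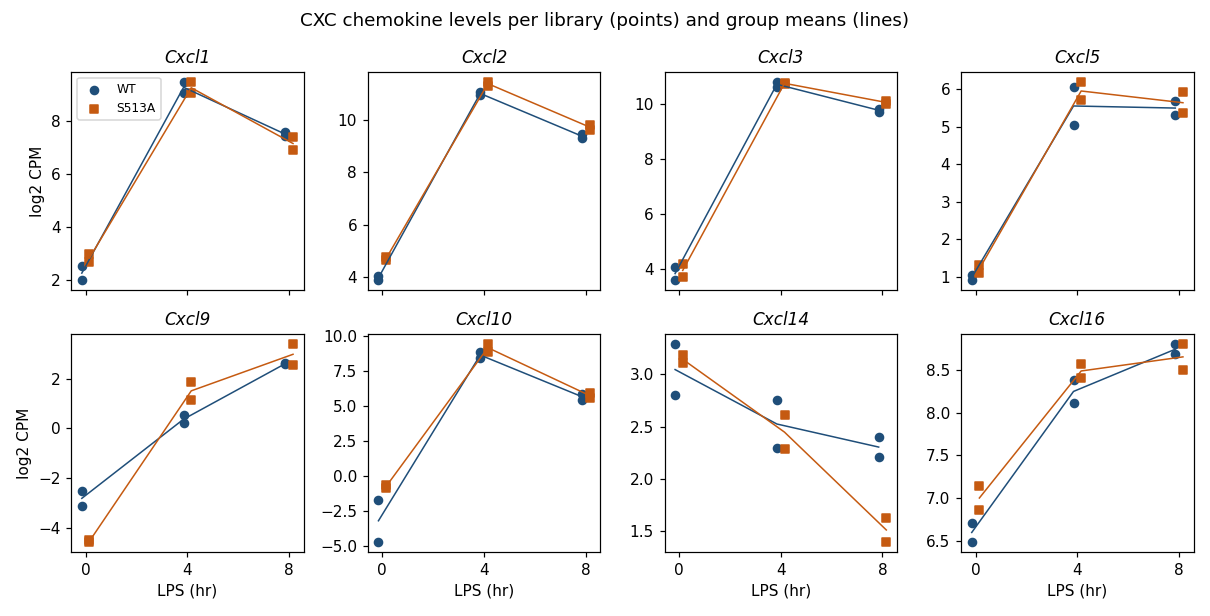
Level of each chemokine mRNA (vertical axis, log2 CPM, with its own range in each panel) against time of LPS (horizontal axis, hr). Each point is 1 library, circles for WT and squares for S513A, and lines join the means of 2 libraries. *Cxcl1*, *Cxcl2* and *Cxcl10* peaked at 4 hr, *Cxcl9* and *Cxcl16* were highest at 8 hr, and *Cxcl14* was highest at 0 hr.

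Among the neutrophil-attracting ligands, *Cxcl2* was at 4.04 and 3.88 log2 CPM in WT before LPS, 11.08 and 10.96 after 4 hr and then 9.30 and 9.46 after 8 hr. In S513A it was at 4.76 and 4.63 before LPS, 11.32 and 11.47 after 4 hr and then 9.64 and 9.83 after 8 hr. The 3 time points did not overlap in either genotype. The rise to 4 hr was 7.06 ± 0.12 (log2 fold change ± SE) in WT (adjusted p = 7.07e-11, limma) and 6.70 ± 0.12 in S513A (adjusted p = 1.23e-10).

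*Cxcl1* was at 2.52 and 2.01 log2 CPM in WT before LPS, 9.49 and 9.08 after 4 hr and then 7.45 and 7.58 after 8 hr. In S513A it was at 2.69 and 2.99 before LPS, 9.07 and 9.47 after 4 hr and then 6.91 and 7.41 after 8 hr. Again no time points overlapped. The rise to 4 hr was 7.02 ± 0.23 in WT and 6.43 ± 0.23 in S513A on the log2 scale.

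*Cxcl3* was at 4.05 and 3.60 log2 CPM in WT before LPS, 10.80 and 10.62 after 4 hr and then 9.81 and 9.72 after 8 hr. In S513A it was at 3.71 and 4.17 before LPS, 10.72 and 10.76 after 4 hr and then 9.98 and 10.11 after 8 hr. Its rise to 4 hr (6.88 ± 0.17 in WT, 6.80 ± 0.17 in S513A) was close in size to those of *Cxcl1* and *Cxcl2*. *Cxcl2* and *Cxcl3* share 61 of their 50-base stretches (3.28% and 6.31% of each), so that a small part of their reads could be assigned to either.

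*Cxcl5* rose less. It was at 1.04 and 0.91 log2 CPM in WT before LPS, 6.06 and 5.06 after 4 hr and then 5.68 and 5.32 after 8 hr. In S513A it was at 1.32 and 1.10 before LPS, 5.71 and 6.20 after 4 hr and then 5.36 and 5.93 after 8 hr. The rise to 4 hr was 4.58 ± 0.31 in WT and 4.75 ± 0.31 in S513A, and the libraries at 4 and 8 hr overlapped in both genotypes.

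Of the interferon-inducible ligands, *Cxcl10* was nearly absent before LPS, with 4 and 0 reads in the WT libraries and 7 and 6 in the S513A libraries. At 4 hr it had 5271 and 3683 reads in WT and 4801 and 5930 in S513A (8.86 and 8.40, and 8.88 and 9.43 log2 CPM). At 8 hr it had 459 and 615 reads in WT and 540 and 569 in S513A (5.45 and 5.88, and 5.54 and 5.95 log2 CPM). Scaled by library size, the summed reads at 4 hr were 2752 times those at 0 hr in WT, with an exact 95% counting interval of 1075 to 10104, and 1025 times in S513A (599 to 1926). These intervals cover counting error only, and the fitted log2 change of a gene with so few reads at 0 hr depends on the 0.5 read added to each count. The exons of *Cxcl10* overlap those of *Art3* by 133 bases, and reads there cannot be separated without strand.

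*Cxcl9* had 2 and 1 reads in WT at 0 hr and 0 reads in both S513A libraries. It reached 16 and 12 reads in WT at 4 hr (0.54 and 0.20 log2 CPM) and 63 and 64 at 8 hr (2.59 and 2.62). In S513A it reached 22 and 31 reads at 4 hr (1.15 and 1.87 log2 CPM) and 68 and 97 at 8 hr (2.56 and 3.40). At each LPS time the libraries lay above those of the time before. At 8 hr the summed reads in WT were 55.1 times those at 0 hr (exact 95% counting interval 18.4 to 271). In S513A they were at least 30.8-fold higher than a floor of 3 reads per library.

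Of the other ligands, *Cxcl16* was already at 6.71 and 6.48 log2 CPM in WT at 0 hr, and reached 8.38 and 8.12 after 4 hr and then 8.68 and 8.80 after 8 hr. In S513A it was at 6.86 and 7.14 before LPS, 8.40 and 8.57 after 4 hr and then 8.50 and 8.81 after 8 hr. It rose by 1.65 ± 0.15 (log2) in WT and 1.49 ± 0.15 in S513A at 4 hr. The exons of *Cxcl16* overlap those of *Zmynd15* by 552 bases, and *Zmynd15* had 94 to 107 reads in WT at 0 hr and 287 to 300 at 8 hr, against 1162 to 4686 reads of *Cxcl16* in WT.

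*Cxcl14* was at 3.29 and 2.80 log2 CPM in WT before LPS, 2.75 and 2.30 after 4 hr and then 2.40 and 2.21 after 8 hr. In S513A it was at 3.18 and 3.10 before LPS, 2.28 and 2.61 after 4 hr and then 1.40 and 1.63 after 8 hr. All libraries at 8 hr lay below those at 0 hr in both genotypes. The change at 8 hr was -0.74 ± 0.23 (log2) in WT (adjusted p = 0.0282, limma) and -1.63 ± 0.23 in S513A (adjusted p = 2.47e-04). The WT call was lost when WT 0 hr replicate 1, WT 8 hr replicate 1 or WT 8 hr replicate 2 was left out (adjusted p = 0.226, 0.0672 and 0.158). At 4 hr the change was -0.52 ± 0.23 in WT (adjusted p = 0.0928) and -0.70 ± 0.23 in S513A (adjusted p = 0.0299). The WT change passed without WT 4 hr replicate 1 (adjusted p = 0.0445), and the S513A call was lost without S513A 0 hr replicate 1, S513A 0 hr replicate 2 or S513A 4 hr replicate 1 (0.129, 0.0896 and 0.164). Markers of mesothelial cells and fibroblasts ranged from 15.02 to 59.4 CPM over the libraries, and their part in the level of *Cxcl14* was not tested.

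Corrected for exon length, *Cxcl16* had the highest mean level of the 8 before LPS, at 5.16 log2 CPM per kb in WT and 5.57 in S513A. At 4 hr *Cxcl3* was highest (10.68 in WT, 10.72 in S513A), followed by *Cxcl2* (10.12 and 10.50), *Cxcl1* (9.35 and 9.34), *Cxcl10* (8.03 and 8.55), *Cxcl16* (6.82 and 7.06), *Cxcl5* (4.90 and 5.30), *Cxcl14* (1.66 and 1.58) and *Cxcl9* (-1.16 and -0.02). No neighbours in that order overlapped between libraries at 4 hr. The length used was the union of annotated exons, which is 1859 bases for *Cxcl2*, while its principal isoform has 1109. Over that shorter length the *Cxcl2* value would be higher. *Cxcl3* led *Cxcl2* by only 0.561 in WT and 0.22 in S513A, so that their order depends on the transcript taken. At 8 hr *Cxcl10* (5.06 in WT, 5.14 in S513A) and *Cxcl5* (4.85 and 4.99) overlapped, and so did *Cxcl1* (7.23) and *Cxcl16* (7.22) in S513A. *Cxcl9* lay below *Cxcl14* at 8 hr in WT (1.08 against 1.43) and above it in S513A (1.45 against 0.64).

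From 4 to 8 hr the 8 chemokines went different ways, and the split did not follow the named groups. In WT, *Cxcl1*, *Cxcl2*, *Cxcl3* and *Cxcl10* fell, *Cxcl9* rose, and *Cxcl5*, *Cxcl14* and *Cxcl16* did not pass the test. That is 1 higher and 4 lower, where 6.73% of tested genes were higher and 7.49% lower. In S513A the same 5 passed in the same directions and *Cxcl14* also fell, giving 1 higher and 5 lower, where 9.31% of tested genes were higher and 8.99% lower. Both genotypes thus held members of each group that fell, while in the interferon-inducible group the other member rose.

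*Cxcl10* had the largest change of the 8, -2.97 ± 0.70 (log2) in WT (adjusted p = 0.0189, limma) and -3.41 ± 0.70 in S513A (adjusted p = 0.00912). Its WT call was lost without WT 4 hr replicate 2 (adjusted p = 0.0535), WT 8 hr replicate 1 (0.125) or WT 8 hr replicate 2 (0.0832). Its S513A call was lost without S513A 4 hr replicate 2 (0.0739) or S513A 8 hr replicate 1 (0.0550). The size of the fall stayed between -2.75 and -3.20 in those WT fits. The SE of 0.70 includes the spread of *Cxcl10* at 0 hr, since all 12 libraries share 1 estimate. Replicate 1 minus replicate 2 was 3.03 (log2) in WT at 0 hr, and -0.54 to 0.45 in the groups at 4 and 8 hr.

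*Cxcl1* fell by 1.77 on the log2 scale (SE 0.23) in WT and by 2.11 (SE 0.23) in S513A. *Cxcl2* fell by 1.64 (SE 0.12) in WT and by 1.66 (SE 0.12) in S513A. Both calls stood with any 1 library left out, with adjusted p of at most 0.0163 for *Cxcl1* and 0.00203 for *Cxcl2*. *Cxcl3* fell by 0.94 (SE 0.17) in WT (adjusted p = 0.00584) and by 0.70 (SE 0.17) in S513A (adjusted p = 0.0211). Its WT call was lost without WT 8 hr replicate 2 (adjusted p = 0.0569), and its S513A call without S513A 4 hr replicate 1 (0.0564), S513A 4 hr replicate 2 (0.115) or S513A 8 hr replicate 1 (0.121).

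*Cxcl5* changed by -0.06 in WT (95% confidence interval -0.74 to 0.63) and -0.31 in S513A (-0.99 to 0.37) on the log2 scale. These intervals leave room for a fall as well as a small rise. *Cxcl16* changed by 0.49 ± 0.15 in WT (adjusted p = 0.0556), with both libraries at 8 hr above both at 4 hr, and by 0.17 ± 0.15 in S513A. The WT change passed the threshold without WT 4 hr replicate 1 (adjusted p = 0.0264), S513A 8 hr replicate 1 (0.0460) or S513A 8 hr replicate 2 (0.0455). *Cxcl14* changed by -0.22 ± 0.23 in WT and by -0.94 ± 0.23 in S513A (adjusted p = 0.0194), and the S513A call was lost without S513A 4 hr replicate 2 (0.143) or S513A 8 hr replicate 1 (0.122).

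*Cxcl9* rose by 2.24 ± 0.43 in WT (adjusted p = 0.00697, limma) and by 1.47 ± 0.43 in S513A (adjusted p = 0.0382). All 4 libraries at 8 hr lay above all 4 at 4 hr. Without WT 8 hr replicate 1 or WT 8 hr replicate 2 the WT call was lost (adjusted p = 0.0612 and 0.0621). The S513A call was lost in 6 of the 12 fits with 1 library left out, namely without WT 8 hr replicate 1, WT 8 hr replicate 2 and each of the 4 S513A libraries at 4 and 8 hr, with adjusted p up to 0.191.

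**Figure D2:**
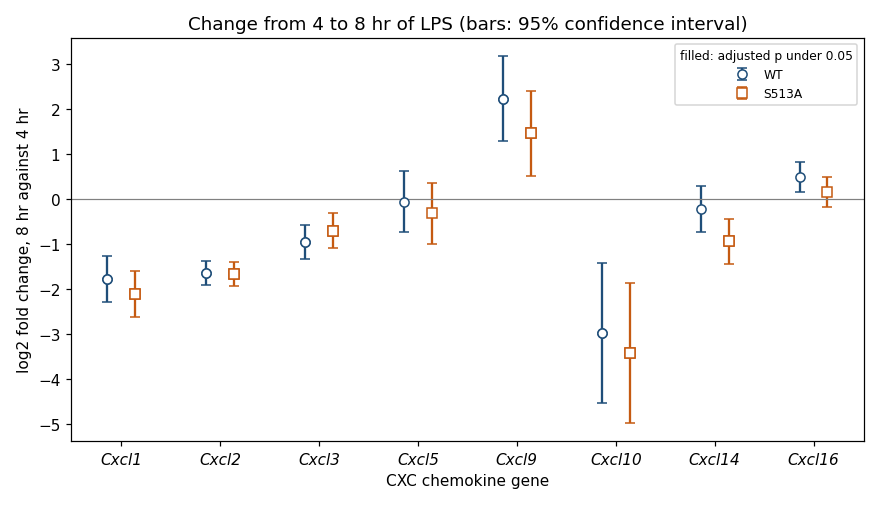
Log2 fold change from 4 to 8 hr of LPS (vertical axis) for each chemokine gene (horizontal axis), circles for WT and squares for S513A. Bars are 95% confidence intervals from the limma model, and filled symbols passed an adjusted p of 0.05. *Cxcl10* lies lowest at -2.97 and -3.41, and *Cxcl9* highest at 2.24 and 1.47.

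To compare the kinetics of the neutrophil-attracting and interferon-inducible ligands without regard to library scaling, the log2 ratio of each pair was taken within each library and compared between the 4 libraries at 4 hr and the 4 at 8 hr. All 8 pairs changed, with no overlap between times (exact permutation test, two-sided, p = 0.0286 for each, the smallest that 70 arrangements can give, and 0.0286 after adjustment over the 8 pairs). Libraries were exchanged between times without regard to genotype. Exchange within each genotype, which has fewer arrangements, was not run. The 8 pairs share genes, so that they are not separate results. The direction depended on the interferon-inducible partner. Against *Cxcl9*, the ratio changed by -3.79 for *Cxcl1*, -3.50 for *Cxcl2*, -2.67 for *Cxcl3* and -2.04 for *Cxcl5*. Against *Cxcl10*, it changed by 1.25 for *Cxcl1*, 1.54 for *Cxcl2*, 2.37 for *Cxcl3* and 3.01 for *Cxcl5*. All 8 pairs also lay apart within WT and within S513A, where the exact permutation test of 2 libraries against 2 cannot reach the threshold and was not run. With 1 of the 8 libraries left out, all 8 pairs still lay apart in the same direction, although 35 arrangements cannot give a p under 0.0571. The share of gene pairs in general that lie apart in these ways is not given. Separation within a genotype or with 1 library left out is therefore not read as a result.

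The genes of the 2 response pathways gave a background for these kinetics. Of 18 NF-kappaB response genes, all 18 rose at 4 hr in both genotypes, where 22.6% of tested genes rose in WT and 23.1% in S513A. From 4 to 8 hr 0 rose and 13 fell in WT, where 6.73% of tested genes rose and 7.49% fell. In S513A 0 rose and 14 fell, where 9.31% rose and 8.99% fell. Their median change from 4 to 8 hr was -1.17 in WT and -0.995 in S513A, beside 0.02 and -0.02 over all genes tested. The largest rises at 4 hr in WT were those of *Il6* (8.58 ± 0.61, log2), *Il1b* (8.15 ± 0.29) and *Ptgs2* (7.54 ± 0.20), which encode the cytokines IL-6 and IL-1beta and a prostaglandin synthase. The largest changes from 4 to 8 hr were those of the chemokine *Ccl4* (-3.36 ± 0.24), *Il6* (-2.52 ± 0.61) and the chemokine *Ccl3* (-1.97 ± 0.18).

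Of 18 interferon response genes, 17 were tested and all 17 rose at 4 hr in both genotypes. From 4 to 8 hr 3 rose and 6 fell in WT, and 3 rose and 10 fell in S513A, against the same shares of all tested genes, with medians of -0.32 and -0.48. The largest rises at 4 hr in WT were those of *Gbp5* (8.40 ± 0.13), a guanylate-binding protein, and of the antiviral genes *Ifit1* (7.31 ± 0.20) and *Mx1* (6.96 ± 0.20). Among genes past the threshold whose libraries did not overlap, the 3 largest changes from 4 to 8 hr in WT were falls. They were those of *Rsad2* (-1.74 ± 0.16), *Cmpk2* (-1.57 ± 0.19) and *Oasl1* (-1.41 ± 0.14). *Ifi44*, outside that set, had WT means of 2.50 log2 CPM at 4 hr and 3.95 at 8 hr. The interferon response list thus held genes that went either way, as *Cxcl9* and *Cxcl10* did.

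**Figure D3:**
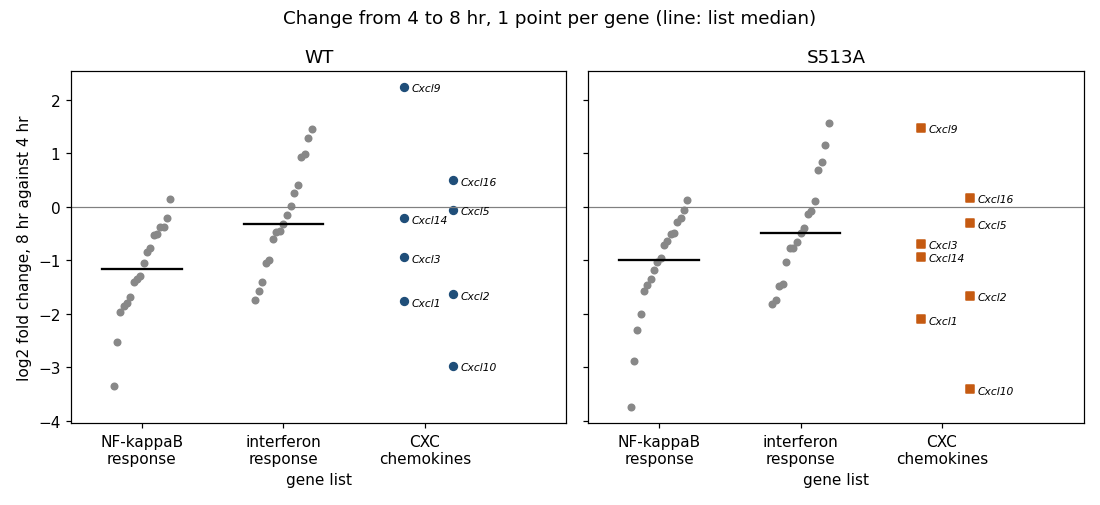
Log2 fold change from 4 to 8 hr (vertical axis) in WT (left) and S513A (right) for the NF-kappaB response genes, the interferon response genes and the 8 CXC chemokines (horizontal axis). Each point is 1 gene, and horizontal lines are the list medians, -1.17 and -0.32 in WT and -0.995 and -0.48 in S513A. *Cxcl10* lies below every interferon response gene in both genotypes, and *Cxcl9* above every one in WT but below *Ifi44* (1.56) in S513A.

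The genes with the most similar profiles over the 12 libraries were described by Pearson's r, which is dominated by the rise from 0 hr that many genes share. For *Cxcl1* they were *Il1a*, *Marcksl1* and *Mapkapk2* (r = 0.997, 0.997 and 0.996), and for *Cxcl2* *Tnf*, *Rsad2* and *Cmpk2* (0.999, 0.999 and 0.998). For *Cxcl3* they were *Irak3*, *Tlr2* and *Xkr8* (0.998 each), and for *Cxcl5* *Rcl1*, *Ifi47* and *Irgm1* (0.996, 0.994 and 0.994). For *Cxcl9* they were *Gbp9*, *Serpina3f* and *Serpina3g* (0.989, 0.984 and 0.980), and for *Cxcl10* *Maff*, *Mtmr7* and *Il6* (0.993, 0.992 and 0.990). For *Cxcl14* they were *Mmp8*, *Rnase4* and *Nme3* (0.969, 0.960 and 0.956), and for *Cxcl16* *Fam26f*, *Ms4a6c* and *Nampt* (0.997, 0.996 and 0.996). Among the members themselves, *Cxcl10* was closer to *Cxcl1* (0.989) than to *Cxcl9* (0.785).

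AU-rich pentamers (ATTTA), which mark many unstable mRNAs, were counted in the 3′ UTR of the longest coding transcript of each gene. *Cxcl2* had 11, *Cxcl1* 7, *Cxcl3* 5, *Cxcl5* 5, *Cxcl9* 3, *Cxcl10* 3, *Cxcl16* 2 and *Cxcl14* 0, beside a median of 2 over 11082 tested genes, of which 22.5% had 5 or more. Per kb of 3′ UTR this was 11.8 for *Cxcl1*, 7.75 for *Cxcl3*, 7.36 for *Cxcl2*, 4.50 for *Cxcl5*, 3.01 for *Cxcl10*, 1.41 for *Cxcl16*, 1.22 for *Cxcl9* and 0 for *Cxcl14*, beside a median of 1.31. The value for *Cxcl2* depends on the transcript, since its principal isoform with most exons has a 3′ UTR of 734 rather than 1494 bases and 14.99 pentamers per kb. Under that rule *Cxcl10* had 2 pentamers and 2.74 per kb, and the other 6 members were as before. The medians over the tested genes were then 1 pentamer and 1.24 per kb. Neither the pentamer nor the transcript rules were among the planned measures, and the second rule was added after the counts under the first had been seen. The relation of these counts to the changes from 4 to 8 hr was not tested.

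The S513A allele was compared with WT at each time. None of the 8 members passed at 0, 4 or 8 hr (0 of 8 each, limma), where 0.0337%, 0.0168% and 0.0337% of all tested genes did. At an unadjusted p under 0.05, 949, 833 and 1487 of all tested genes passed at 0, 4 and 8 hr. Averaged over the 3 times, 1 of 8 members passed, where 0.0673% of tested genes did.

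That member was *Cxcl2*, which was higher in both S513A libraries than in both WT libraries at each of the 3 times. The share of all tested genes that separate between genotypes is not given, so that such separation is not read as a result, here or below. *Tnf*, *Rsad2* and *Cmpk2*, the genes with profiles most like that of *Cxcl2*, had mean differences of 0.38, 0.49 and 0.40, none past the threshold. The *Cxcl2* differences were 0.74 ± 0.12 (log2) at 0 hr, 0.38 ± 0.12 at 4 hr and 0.35 ± 0.12 at 8 hr, with adjusted p of 0.156, 0.622 and 0.395 (limma). Their mean was 0.49 ± 0.07 (adjusted p = 0.0465), and the call was lost in 10 of 12 fits with 1 library left out, in which the adjusted p reached 0.320. It stood only without WT 4 hr replicate 1 or S513A 8 hr replicate 1.

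The other members had mean differences between -0.26 (*Cxcl14*) and 1.02 (*Cxcl10*), none past the threshold. *Cxcl10* passed, at 1.52 (adjusted p = 0.00760), when WT 0 hr replicate 1 was left out, which leaves a WT library with 0 reads at 0 hr. *Cxcl1* differed by 0.57 ± 0.23 at 0 hr, -0.02 ± 0.23 at 4 hr and -0.35 ± 0.23 at 8 hr. *Cxcl14* differed by -0.79 ± 0.23 at 8 hr (95% confidence interval -1.30 to -0.29, adjusted p = 0.395), with both S513A libraries below both WT libraries. *Cxcl3*, *Cxcl5* and *Cxcl16* differed by 0.40 or less in size at each time. *Cxcl9* differed by 1.14 at 4 hr, with both S513A libraries above both WT libraries, and had means of 2.61 log2 CPM in WT and 2.98 in S513A at 8 hr. Neither difference passed the threshold. At 0 hr *Cxcl9* was at or under 3 reads in all 4 libraries, so that its fitted difference there and its mean over the times are not read as results.

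**Figure D4:**
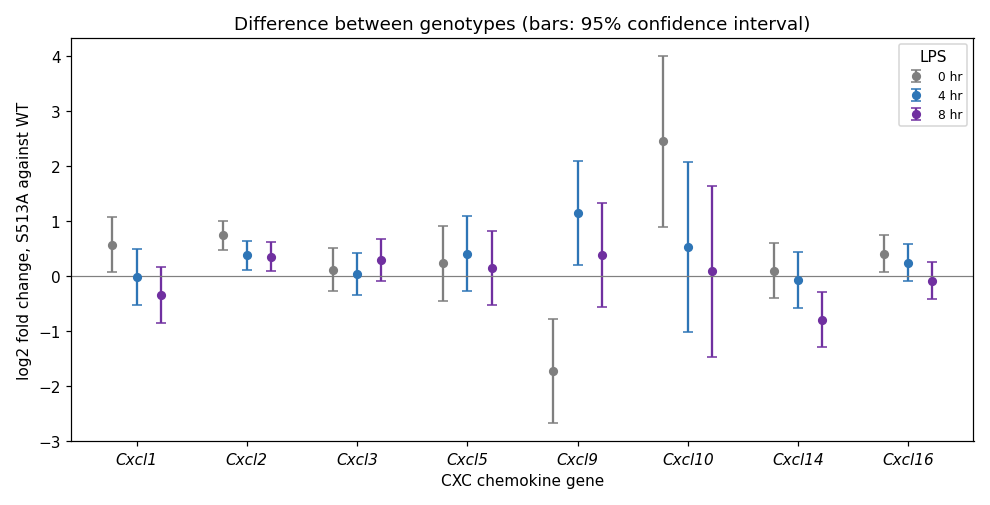
Log2 fold change of S513A against WT (vertical axis) for each chemokine gene (horizontal axis) at 0, 4 and 8 hr of LPS. Points are limma estimates from 2 libraries per group and bars 95% confidence intervals. No point passed an adjusted p of 0.05, and the widest intervals are those of *Cxcl10*, whose 0 hr libraries held 0 to 7 reads. The *Cxcl9* point at 0 hr rests on 0 to 2 reads per library, under the floor of 3 reads.

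Whether the LPS response differed between genotypes was tested as a term of its own. For the changes from 0 to 4 hr, 0 to 8 hr and 4 to 8 hr, 0 of 8 members passed, and 0% of all tested genes did in each (limma). At an unadjusted p under 0.05, 144, 2405 and 2243 of all tested genes passed. The difference in the change from 4 to 8 hr lay between -0.77 (*Cxcl9*) and 0.25 (*Cxcl3*) on the log2 scale. Its 95% confidence interval was -1.05 to 0.38 for *Cxcl1*, -0.40 to 0.35 for *Cxcl2* and -2.63 to 1.75 for *Cxcl10*. All 12 libraries share 1 estimate of spread for each gene. Replicate 1 minus replicate 2 of *Cxcl10* was 3.03 (log2) in WT at 0 hr and -0.54 to 0.45 in the other groups. The interval of *Cxcl10* thus includes spread from 0 hr, a time outside this contrast, and this model could have missed a large difference.

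Among the other genes of the family, 4 of 7 further CXC ligands were listed. *Cxcl13*, which attracts B cells, was at 2.52 and 2.67 log2 CPM in WT and 1.22 and 1.31 in S513A at 0 hr, 3.78 and 2.96 against 1.84 and 1.51 at 4 hr, and 3.00 and 3.28 against 0.32 and 0.84 at 8 hr. All S513A libraries lay below the WT libraries of their time, and the difference at 8 hr was -2.56 ± 0.29 (adjusted p = 0.0119, limma). *Pf4*, a platelet and macrophage chemokine, had 2043 to 4760 reads per library and was higher at 8 hr than at 0 hr in WT (1.21 ± 0.34, adjusted p = 0.0185), beside -0.34 ± 0.34 in S513A (adjusted p = 0.459). It passed in no other contrast. *Cxcl12* had 1 to 15 reads, and *Ppbp* 3 to 45 reads. From 4 to 8 hr in S513A, *Cxcl12* fell by 2.12 (adjusted p = 0.0164) and *Cxcl13* by 1.10 (adjusted p = 0.0248), while *Ppbp* rose by 1.79 from 0 to 4 hr in S513A (adjusted p = 0.0193). The fall of *Cxcl12* rests on 3 and 1 reads at 8 hr, at or under the floor of 3 reads. In WT the means at 4 and 8 hr were -0.05 and -0.40 log2 CPM for *Cxcl12*, and 3.37 and 3.14 for *Cxcl13*. At 8 hr the mesothelial and fibroblast markers summed to 32.0 to 40.4 CPM in WT and 16.5 to 41.3 CPM in S513A, and the B cell markers to 17.7 to 25.7 CPM and 14.3 to 16.5 CPM. The part of these cells in the levels of *Cxcl12* and *Cxcl13* was not tested.

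Of 8 CXC receptors, 4 were listed and *Cxcr2*, the receptor of the neutrophil-attracting ligands, was not. *Cxcr4*, the receptor of *Cxcl12*, was at 6.16 and 6.13 log2 CPM in WT at 0 hr and 1.97 and 1.82 at 4 hr. It fell by 4.25 ± 0.13 in WT and by 4.84 ± 0.13 in S513A at 4 hr, and rose by 1.14 ± 0.13 and 1.20 ± 0.13 from 4 to 8 hr. *Cxcr3*, the receptor of *Cxcl9* and *Cxcl10*, had 0 to 14 reads and was not tested, *Cxcr5* had 4 to 16 reads, and *Cxcr6*, the receptor of *Cxcl16*, had 3 to 19. *Cxcr6* rose by 1.61 ± 0.53 at 4 hr in S513A (adjusted p = 0.0317), beside 1.20 ± 0.53 in WT (adjusted p = 0.0979).

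The proteases that release *Cxcl16* went opposite ways at 4 hr. *Adam17* rose by 0.86 ± 0.10 in WT and 0.77 ± 0.10 in S513A, and *Adam10* changed by -0.37 ± 0.10 (adjusted p = 0.0129) and -0.50 ± 0.10 (adjusted p = 0.00217). *Zc3h12a* itself was at 5.39 and 5.20 log2 CPM in WT and 4.99 and 5.09 in S513A at 0 hr. It rose by 2.71 ± 0.12 in WT and 2.88 ± 0.12 in S513A at 4 hr and fell by 1.16 ± 0.12 and 0.87 ± 0.12 from 4 to 8 hr. It did not pass between genotypes at any time. Its RNA level is no check of the labels, since the allele changes a residue of the protein.

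A list of 9 regulators of inflammatory mRNA decay held *Zc3h12a*, *Zc3h12c*, *Zfp36*, *Zfp36l1*, *Zfp36l2*, *Rc3h1*, *Rc3h2*, *Elavl1* and *N4bp1*. Of these 9 genes, 5 rose and 2 fell at 4 hr in both genotypes, where 22.6% of tested genes rose and 18.7% fell in WT and 23.1% rose and 20.2% fell in S513A. From 4 to 8 hr 0 rose and 5 fell in WT, where 6.73% of tested genes rose and 7.49% fell. In S513A 1 rose and 1 fell, which is near the 9.31% and 8.99% of all tested genes. Of 12 genes of the LPS receptor and its adaptors, 7 rose and 1 fell at 4 hr in WT and 5 rose and 1 fell in S513A, against the same shares of all tested genes at 4 hr.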

How the data were processed

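Poly(A) RNA of 12 libraries of PECs had been sequenced in paired-end mode. The authors mapped the reads on mm10 with HISAT2 as unstranded, counted them with featureCounts 1.6.3 and deposited log2 CPM values, each the log2 of the reads plus 0.5, scaled to an effective library size. The program behind that scaling, the annotation and the filter are not given in the sources used here. Multiplying back gave whole reads, with a largest departure of 0.00144 read. All deposited columns were used.

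Genes that reached 1 CPM in 2 or more libraries (11885 of 12850) were fitted with limma 3.58.1 in R 4.3.3, with 6 group means and a prior that followed the mean level. Tests were two-sided, adjusted by the Benjamini-Hochberg method over all genes tested, with a threshold of 0.05. Exact permutation tests used scipy 1.17.1. The model was tested on simulated data. Depth was 9525979 to 12439960 reads per library, and 3 reads, taken as the floor, were a log2 CPM of -2.04 to -1.30. Intervals on reads cover counting error only.

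The chemokines, the gene lists and the tests were chosen with earlier results of these data known. Named were the 8 members, for each the 3 genes with the highest r over 12 libraries, the further ligands, receptors, proteases and *Zc3h12a*, and of the NF-kappaB and interferon lists the 3 largest rises at 4 hr and the 3 largest changes from 4 to 8 hr in WT among genes past the threshold whose libraries did not overlap. Level per kb used the union of GENCODE exons. Alternatives were no filter, a stricter filter (a mean of 5 CPM), a further pseudocount of 1 CPM, median-ratio scaling, quantile normalization, replicate blocks, no trend in the prior, only the groups compared, voom weights and each library left out. A crossed replicate block and a second transcript rule for the 3′ UTR were added after seeing the data.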

Additional observations from a re-analysis of the deposited data

Results flagged for a closer look

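The fitted *Cxcl1* difference between genotypes had opposite signs at 0 and 8 hr, and neither value passed the threshold. The libraries of the genotypes did not overlap at either time. An exact permutation test of 2 libraries against 2 cannot reach the threshold, so that this separation is not read as a result. The share of all tested genes that separate in this way is not given. The log2 fold change of S513A against WT was 0.57 at 0 hr and -0.35 at 8 hr. The difference in the response from 0 to 8 hr was -0.92 ± 0.32 (unadjusted p = 0.0166, adjusted p = 0.199, limma), which did not pass. *Cxcl9* had fitted values of -1.72 at 0 hr and 1.14 at 4 hr. The value at 0 hr rests on 2 and 1 reads in WT and 0 in both S513A libraries, under the floor of 3 reads, so that an opposite direction at 0 hr has no support. With 2 libraries per group, no library could be set against the others of its group.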

How the results depend on the processing

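With 1 library left out, the number of members called ranged from 7 to 8 at 4 hr in WT, 7 to 8 in S513A, 7 to 8 at 8 hr in WT and 8 to 8 in S513A. From 4 to 8 hr it ranged from 2 to 6 in WT and 2 to 6 in S513A. Between genotypes it ranged from 0 to 1 at 0 hr, 0 to 0 at 4 hr, 0 to 0 at 8 hr and 0 to 1 for the mean of the times, and for the difference in response 0 to 0 (4 hr), 0 to 1 (8 hr, *Cxcl10* without WT 0 hr replicate 1) and 0 to 0 (4 to 8 hr). The 8 pairs gave 0 to 0 calls with 1 library left out, because 35 arrangements cannot reach the threshold. *Cxcl2* for the mean of the times was not called (0 members) with the stricter filter, without a trend in the prior or with the replicate block. *Cxcl2* at 0 hr was called (1 member) with only the groups compared.

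The labels do not say that replicate numbers mark a shared batch. Deviations of same-numbered libraries correlated between groups with r from 0.15 to 0.76 among WT 0 hr, WT 8 hr, S513A 4 hr and S513A 8 hr, from -0.75 to -0.21 between WT 4 hr and these, and from -0.25 to 0.04 between S513A 0 hr and the others, so that the numbers were not taken as pairs. The replicate block left the count of members called from 4 to 8 hr at 5 in WT and moved it to 5 in S513A, where *Cxcl9* was lost (adjusted p = 0.0531). With the block nested in genotype, *Cxcl16* from 4 to 8 hr in WT was gained (adjusted p = 0.0289), with 6 members called in each genotype. With crossed numbers in a fit of only the groups compared, chosen after seeing the data, 2 members were called between genotypes at 0 hr and 3 at 4 hr. The share of all tested genes called in that fit is not given, so that these counts are not read as results. That fit changed the block and the samples together, and the part of each was not tested.

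Quantile normalization lost *Cxcl14* at 4 hr (adjusted p = 0.0920) and *Cxcl3* and *Cxcl9* from 4 to 8 hr (0.0699 and 0.0553) in S513A and gained *Cxcl16* from 4 to 8 hr in WT (0.0306). With only the groups compared, *Cxcl9* and *Cxcl14* from 4 to 8 hr in S513A were lost (0.0797 and 0.0855), and with voom weights *Cxcl14* (0.0520).

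None of the values whose direction turned had passed the threshold. With a further 1 CPM, *Cxcl9* for the mean of the times was 0.32, and *Cxcl10* for the difference in response to 4 hr was 0.070 in place of -1.92. With quantile normalization, *Cxcl3* between genotypes at 4 hr was -0.0054, *Cxcl9* for the mean of the times 0.020 and *Cxcl2* for the difference in the change from 4 to 8 hr 0.062. With 1 library left out, S513A against WT at 4 hr ranged -0.23 to 0.19 for *Cxcl1*, -0.30 to 0.15 for *Cxcl14*, -0.056 to 0.13 for *Cxcl3* and -0.099 to 0.90 for *Cxcl5*. At 0 hr it ranged -0.15 to 0.34 for *Cxcl14* and -0.11 to 0.34 for *Cxcl3*, and at 8 hr -0.13 to 0.30 for *Cxcl10*, -0.24 to 0.062 for *Cxcl16*, -0.14 to 0.43 for *Cxcl5* and -0.044 to 0.79 for *Cxcl9*. The mean of the times ranged -0.018 to 0.15 for *Cxcl1* and -0.21 to 0.070 for *Cxcl9*. The change from 4 to 8 hr in WT ranged -0.45 to 0.0059 for *Cxcl14* and -0.55 to 0.44 for *Cxcl5*. The difference in response to 4 hr ranged -0.42 to 0.070 for *Cxcl14*, -0.31 to 0.15 for *Cxcl3* and -0.33 to 0.67 for *Cxcl5*, that to 8 hr -0.059 to 0.40 for *Cxcl3* and -0.37 to 0.19 for *Cxcl5*, and that from 4 to 8 hr -0.12 to 0.068 for *Cxcl2* and -0.76 to 0.24 for *Cxcl5*. The cause was not tested. At this depth, *Cxcl9* and *Cxcl10* at 0 hr, with at most 7 reads, limit every fold against 0 hr. Because all 12 libraries share 1 estimate of spread for each gene, these counts also enter the SE of both genes from 4 to 8 hr.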
